A study of Mus musculus with 2 samples.

Results

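Malat1, Neat1, Kcnq1ot1, Gm42418 and AI506816 were followed here as a set named for nuclear long noncoding RNAs, and were found by their symbols among the genes of the count tables. They are 5 of 32285 genes, and all 5 had UMIs (unique molecular identifiers, 1 per captured RNA molecule) in both libraries. GL261 is a mouse glioma cell line from the C57BL/6 strain, and scRNA-Seq libraries, 1 per culture, were made of its adherent and neurosphere forms with the 10x Genomics single cell 3' v3 kit. Adherent cells grew in serum medium, and neurospheres, which are free-floating aggregates, grew for 12 days with B-27, EGF and FGF added to that medium (epidermal and fibroblast growth factors, 20 ng/ml each). Both cultures were loosened with trypsin and frozen in medium with DMSO, and the neurospheres were also broken up by pipetting, so handling and growth condition cannot be told apart.

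Nuclear long noncoding RNAs stay where they are made and are not exported for translation. Malat1 collects in nuclear speckles, bodies rich in splicing factors, and Neat1 is the scaffold of paraspeckles, bodies that hold RNA binding proteins. Kcnq1ot1 is an antisense RNA made from the paternal chromosome that silences imprinted genes around it, and Gm42418 is annotated over a ribosomal RNA repeat unit. In single-cell data, the share of a cell's UMIs that such RNAs take is widely used as a sign of how much cytoplasm was captured with the nucleus. Whole cells were sequenced here, so the place of each RNA within the cell was not measured, and for AI506816 nothing is said beyond its annotation.

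In GRCm38, Malat1 (ENSMUSG00000092341) lies on the minus strand of chromosome 19 from 5795690 to 5802672, as 1 exon of 6983 bases. Neat1 (ENSMUSG00000092274) lies on the same strand from 5824708 to 5845478, 22035 bases away, and its longest transcript is also 1 exon. Kcnq1ot1 (ENSMUSG00000101609) lies on the minus strand of chromosome 7 from 143203458 to 143296549, inside Kcnq1, which is read from the plus strand. Gm42418 (ENSMUSG00000098178) is read from the plus strand, at 39846958 to 39848788 of chromosome 17, and overlaps AY036118 on the other strand. AI506816 (ENSMUSG00000105987) lies on the minus strand of chromosome 5 from 23698296 to 23712667, and its longest transcript has 4 exons and 2804 bases. The strand setting of the counting is not given in the sources used here, so counts of Gm42418 and Kcnq1ot1 and of the genes across from them are uncertain.

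The 3' kit captures RNA by its stretch of A bases, at the tail or within the RNA, so runs of A were searched for in each transcript. A match is a description of the letters, and where reads began was not measured. Malat1 had 1 run of at least 12 A (AAAAAAAAAAAA, searched on the sense strand of the longest transcript), close to its 3' end. Kcnq1ot1 had 8 such runs, the longest of 41 bases, and the other 3 RNAs had none. Of 32158 genes with a transcript sequence, 7.64% held such a run. Among transcripts of like length (a ratio of lengths of at least 0.8) the share was 22.7% of 2286 for Malat1 and 66.7% of 3 for Kcnq1ot1, each counted with itself. The windows shown, of 30 bases each from the GENCODE transcript sequences, hold the runs of Malat1 and Kcnq1ot1 and, beside them, the longest run of AI506816, of 8 bases, with the run in capitals. They lie on the minus strand at chr19:5795979-5796008, chr7:143226966-143226995 (where the run goes on past the window) and chr5:23700985-23701014.
Malat1: cctagctttAAAAAAAAAAAAgcaaaagac
Kcnq1ot1: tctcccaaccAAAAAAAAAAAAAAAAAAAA
AI506816: gaagtttagttAAAAAAAAtaaggctgaat

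The adherent library held 5764 called cells and 68531063 UMIs, and the neurosphere library held 4951 called cells and 82832873 UMIs. After the 13 mitochondrial and 101 ribosomal protein genes were set aside, cells with at least 1000 UMIs and a minimum number of genes set for each library by the study were kept. These were 5051 adherent and 4276 neurosphere cells, with medians of 8260 and 13198.5 UMIs on the genes left. The kept cells differed between the libraries in mitochondrial share (medians of 2.02% and 3.97%) and in ribosomal share (30.2% and 16.8%). The labels call the line an astrocytoma. Of 8 glial markers, Vim, Nes, Sox2, Slc1a3, S100b and Olig2 had from 3231 to 258427 UMIs in a library, and Gfap had 30 and 27 and Aqp4 none. Among these, Slc1a3 (17148 and 5231 UMIs) and S100b (7437 and 16535) mark astrocytes as Gfap and Aqp4 do, so the astrocyte markers were split. Marker lists of macrophages (10.7 and 4.57 CPM in all, nearly all Cd68), blood vessels (1.34 and 3.23 CPM), neurons (6.80 and 18.7 CPM) and red cells (3.95 and 0.12 CPM) were low, and C1qa, Tyrobp, Cdh5 and Snap25 were at 0. A cell barcode was shared by both libraries for 12 cells. With 1 library per culture no difference has a replicate check and no test was run, and every 95% interval given covers counting error only.

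Levels of the 5 RNAs are given as CPM, the UMIs of a gene in all kept cells together per 1000000 UMIs on the genes left, and for 1 cell as UMIs per 10000. In these units Neat1, Kcnq1ot1 and AI506816 were over 2-fold higher in neurosphere cells, Gm42418 was just under 2-fold lower, and Malat1 differed little. Of all 14654 genes with at least 50 UMIs, 21.7% were over 2-fold higher and 11.7% over 2-fold lower, beside 3 and 0 of the 5 RNAs. The median of those genes was a log2 ratio of 0.32, which TMM scaling (a trimmed mean of the genes' ratios) moved to 0.11 and a total of all UMIs to 0.54. With TMM scaling 16.1% of genes were over 2-fold higher and 14.5% lower, and with all UMIs 29.5% and 9.38%. Of the 5 RNAs, 1 was then over 2-fold higher (Kcnq1ot1) and 1 lower (Gm42418) with TMM scaling, and 3 and 0 with all UMIs.

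Malat1 had 139328 UMIs in adherent cells, or 3009.8 CPM, and 180764 UMIs in neurosphere cells, or 2783 CPM. The log2 ratio of neurosphere to adherent cells was -0.11 (95% interval -0.12 to -0.10), but it was 0.11 with all UMIs in the total and 0.13 with each cell thinned to 5000 UMIs. Which culture held more Malat1 thus turned on how UMIs and cells were weighed. Relative to the median gene, which moves along with the total, the log2 ratio was -0.44. The median cell had 23.5 UMIs of Malat1 per 10000 in adherent cells, with quartiles of 10.4 and 45.0, and 19.9 in neurosphere cells, with quartiles of 8.45 and 42.4. The cells of both cultures overlapped over nearly their whole range.

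The level of Neat1 was 180.3 CPM when cells were adherent and 377 CPM when they grew as neurospheres. The log2 ratio was 1.06 (1.03 to 1.10). With TMM scaling it was 0.85, under the 2-fold line. The median cell had 0.97 UMIs of Neat1 per 10000 in adherent and 2.30 in neurosphere cells. Neurosphere cells were thus higher at the median as well as in the pooled level, and single cells of both cultures reached similar peaks, at 124 and 123.5 per 10000.

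AI506816 had a level of 878 CPM in the adherent and of 1981 CPM in the neurosphere library. Its log2 ratio was 1.17 (1.16 to 1.19), or 0.96 with TMM scaling. Its distributions were the best separated of the 5, since the upper quartile of adherent cells, 11.7 per 10000, lay under the lower quartile of neurosphere cells, 13.0. Every kept neurosphere cell had at least 1 UMI of it.

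Kcnq1ot1 was the scarcest in UMIs, with 1024 in the adherent library, or 22.1 CPM, and 5123 in the neurosphere library, or 78.9 CPM. Its log2 ratio was 1.83 (1.74 to 1.93). It was the one member whose ratio passed 2-fold under every scaling run, from 1.62 to 2.05. The median adherent cell had no UMI of it and the median neurosphere cell had 0.49 per 10000.

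Gm42418 had a level of 385 CPM among adherent cells against 196 CPM in neurospheres, and the log2 ratio was -0.98 (-1.01 to -0.94). TMM scaling put it past the 2-fold line at -1.19, and all UMIs in the total gave -0.76, so it was lower in neurosphere cells under each scaling. Its median was 3.67 per 10000 in adherent and 1.81 in neurosphere cells. AY036118, across from it on the other strand, had the same direction, with 48.5 and 23.5 CPM.

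**Figure D1:**
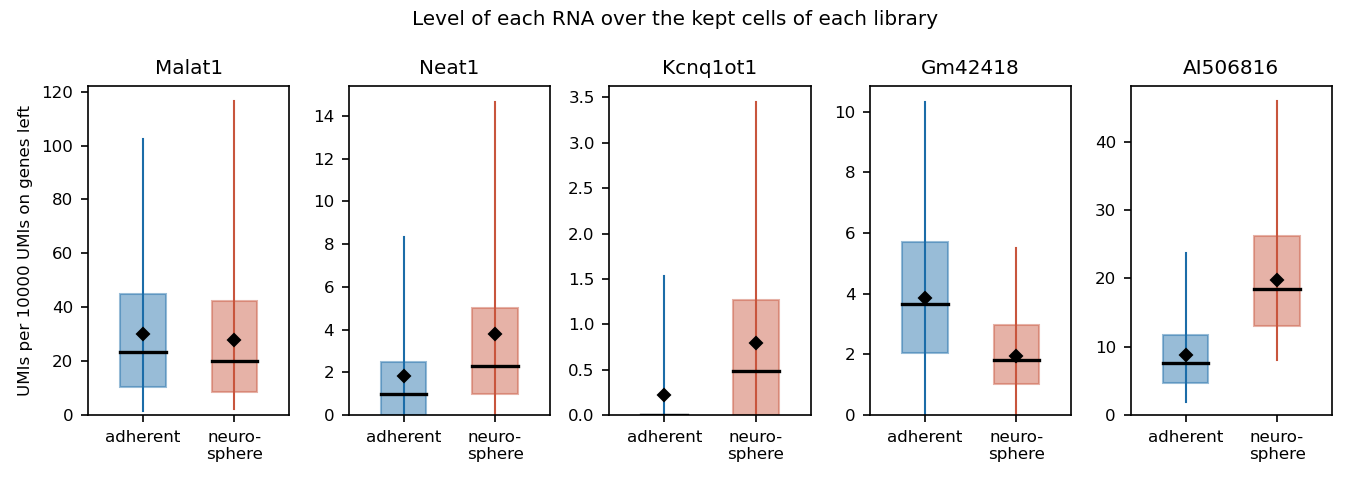
Level of each RNA over the kept cells of the adherent and neurosphere libraries, in UMIs per 10000 UMIs on the genes left; boxes span the quartiles, the black line is the median, whiskers reach the 5th and 95th percentiles, and the diamond is the pooled level. The AI506816 boxes do not overlap (upper quartile 11.7 in adherent, lower quartile 13.0 in neurosphere cells), while those of Malat1 nearly coincide.

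Malat1 gave a UMI in 98.0% of adherent cells and in 99.0% of neurosphere cells, and AI506816 in 98.6% and 100%. Neat1 was found in 58.4% and 87.8%, Kcnq1ot1 in 16.6% and 56.1%, and Gm42418 in 94.0% and 90.8%. Neurosphere cells were deeper, so cells were also thinned to 5000 UMIs, and those with fewer (587 adherent, 80 neurosphere) were not used. The shares of cells were then 42.6% (95% interval 41.1 to 44.1) and 67.9% (66.4 to 69.3) for Neat1, 9.95% (9.08 to 10.9) and 30.5% (29.1 to 31.9) for Kcnq1ot1, and 82.7% (81.5 to 83.8) and 62.0% (60.5 to 63.5) for Gm42418. The order of the cultures was the same as in CPM for these 3 RNAs. RNA free in the droplets gives UMIs too, and neither library held cells known to lack these RNAs that would show how large that share is.

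In thinned cells the Fano factor, the variance over the mean, had a median of 1.06 over 5951 genes in adherent cells and of 1.08 over 6958 genes in neurosphere cells. For Malat1 it was 15.3 and 29.4, above 99.9% of genes in each library, and for Neat1 3.10 and 5.94, above 99.0% and 99.2%. AI506816, with 2.84 and 4.37, was above 98.8% and 98.7% of genes. Kcnq1ot1 (1.15 and 1.45) was above 80.2% and 88.8%, and Gm42418 (1.50 and 1.30) above 95.1% and 83.9%. The Fano factor grows with the mean, which in thinned adherent cells was 15.5 UMIs for Malat1, 0.86 for Neat1 and 0.11 for Kcnq1ot1, and these genes were not matched on it, so the members are not ranked by it. The 10% of kept cells with the most Neat1 UMIs held 48.8% of its adherent and 45.8% of its neurosphere UMIs. The same share was 33.4% and 35.1% for Malat1, 28.3% and 24.98% for AI506816, 24.7% and 26.8% for Gm42418, and 67.7% and 40.9% for the sparse Kcnq1ot1.

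The level of all 5 RNAs was lower in deeply sequenced cells than in shallow ones, in both cultures. Kept cells were sorted into 5 bins of equal size by their UMIs on genes other than the 5, and the median depth went from 4724 to 14628.5 UMIs in adherent and from 6706.5 to 26153 in neurosphere cells. The level in the deepest bin was over 2-fold lower than in the shallowest for 3 of 5 RNAs in adherent cells, where 4.07% of 10195 genes were, and for 3 of 5 in neurosphere cells, where 10.4% of 11172 genes were. The median gene had a log2 ratio of -0.20 and -0.22. None of the 10 values had an interval that reached 0.

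For Malat1 the 5 adherent bins were at 4876, 3424, 3226, 3140 and 2111 CPM from shallowest to deepest, a log2 ratio of -1.21 (-1.23 to -1.18). The 5 neurosphere bins were at 6313, 3828, 2677, 2441 and 1869 CPM, a log2 ratio of -1.76 (-1.78 to -1.74). Each step was downward in both cultures. The mean number of Malat1 UMIs per cell was 22.0 in the shallowest and 33.7 in the deepest adherent bin, and 41.8 and 53.4 in the neurosphere bins, with a low of 35.3 in the middle. Between the end bins the lower level thus went with a higher count. Without the cells over the 95th percentile of UMIs, where doublets would be most common, the adherent ratio was -0.90, under 2-fold.

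Neat1 was at 368 CPM in the shallowest and 125 CPM in the deepest adherent bin, a log2 ratio of -1.56, and only 0.206% of genes had a lower one. In neurosphere cells it went from 647 to 287 CPM, a log2 ratio of -1.17. Adherent cells held a mean of 1.66 UMIs of Neat1 in the shallowest and 1.99 in the deepest bin, and neurosphere cells 4.28 and 8.20. Gm42418 went from 625 to 265 CPM in adherent cells (log2 ratio -1.24) and from 297 to 153 CPM in neurosphere cells (-0.96).

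Kcnq1ot1 went from 32.0 to 16.6 CPM in adherent cells, a log2 ratio of -0.95 (-1.24 to -0.64), and from 139.5 to 62.8 CPM in neurosphere cells, a log2 ratio of -1.15 (-1.28 to -1.03). AI506816 had the smallest ratios, -0.73 from 1253 to 753 CPM and -0.71 from 2786 to 1703 CPM. Lower ratios were held by 12.2% of genes in adherent and 20.3% in neurosphere cells. The mitochondrial share also moved with depth, from medians of 2.47% to 1.82% in adherent and of 4.85% to 3.29% in neurosphere cells, and its part in the trend was not tested.

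**Figure D2:**
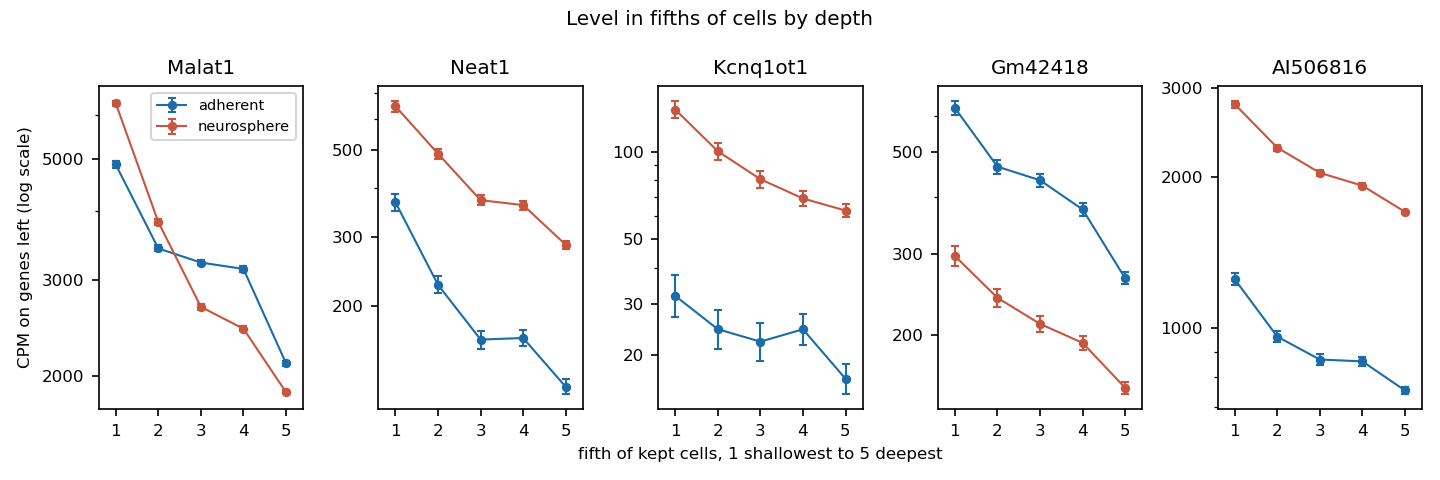
Level of each RNA in CPM (log scale) in 5 bins of kept cells from shallowest (1) to deepest (5), for adherent and neurosphere cells, with 95% counting intervals. The levels of Malat1 in neurosphere cells go from 6313 to 1869 CPM, and all 10 lines end lower than they start.

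Among kept cells, the level of all 5 RNAs was higher where mitochondrial genes took more of the UMIs. Such bins by mitochondrial share, a split added after the data had been seen, had medians from 1.45% to 3.18% in adherent and from 2.71% to 6.02% in neurosphere cells. Neat1 was over 2-fold higher in the top than in the bottom bin of adherent cells (2.62% of genes were), at 322 against 137 CPM. In neurosphere cells Malat1 and Neat1 were (9.45% of genes), at 4318 against 1929.9 CPM and 564 against 267 CPM. The 10 log2 ratios were from 0.60 to 1.24, beside medians of 0.21 and 0.24 over all genes.

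Depth was lower in the same cells, with medians of 6381 UMIs in the top and 9336 in the bottom adherent bin and of 9114 and 18382.5 in the neurosphere bins. Taken within bins of depth, the 10 log2 ratios were from 0.25 to 0.87 and none was over 1. Taken within bins of long-gene share, the UMIs of the 1077 genes that span at least 200000 bases in the annotation, they were from 0.043 to 0.74. None of the ratios was negative in either split, and most were smaller. No interval is given for these splits, so the lowest value, 0.043 for Kcnq1ot1 in neurosphere cells, is not read as a direction.

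In all called cells, including those the filter left out, Gm42418 stood apart. Cells with under 5% mitochondrial UMIs (4980 adherent and 3354 neurosphere) were set beside cells with at least 50% (347 and 478), whose medians were only 130 and 72 UMIs on the genes left. Gm42418 went from 377 to 33101 CPM in adherent cells, 87.8-fold higher (log2 ratio 6.46, 6.38 to 6.53). In neurosphere cells it went from 185 to 11506 CPM, 62.1-fold higher (5.96, 5.83 to 6.08). These ratios were larger than those of 99.97% and 99.98% of genes.

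Between the filtered sets, Gm42418 was 23.1-fold higher in the 713 adherent cells left out than in those kept and 7.52-fold higher in the 675 neurosphere cells left out. The other 4 RNAs were from 3.05-fold to 6.81-fold and from 1.90-fold to 2.17-fold higher.

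In adherent cells Gm42418 had a mean of 3.47 UMIs per cell in the lowest bin and of 4.95 in the highest. A UMI of it was found in 93.9% and 93.4% of these cells, although the median depth on the genes left went from 8301 to 130 UMIs. The number of Gm42418 UMIs in an adherent cell was thus no lower in the bin with the fewest UMIs. In neurosphere cells the mean went from 3.02 to 1.18 UMIs and the share of cells from 90.5% to 54.2%.

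All 5 RNAs were over 2-fold higher at 50% or more than under 5% mitochondrial UMIs in both cultures, where 47.2% of genes in adherent and 43.5% in neurosphere cells were too. Malat1 went from 2962 to 9722 CPM and from 2509 to 8472 CPM, ratios larger than those of 70.3% and 71.3% of genes. Malat1 in adherent cells peaked at 13262 CPM in the bin of 10 to 20%, and Neat1 peaked there too at 1816 CPM. The Kcnq1ot1 ratios rest on 4 and 8 UMIs in the highest bin, and their intervals reached below 0.

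AI506816 went from 862 to 4012 CPM in adherent cells and from 1889 to 12891 CPM in neurosphere cells, where 57.9% of the cells at 50% or more had a UMI of it. These levels leave mitochondrial UMIs out of the total. With all UMIs in the total, 2 of the 10 values were over 2-fold higher, both of Gm42418, at log2 ratios of 4.71 and 2.89. Malat1 was then at -0.037 in adherent and -1.31 in neurosphere cells, and Kcnq1ot1, Neat1 and AI506816 were at -1.92, -0.58 and -0.30 in neurosphere cells, where Kcnq1ot1 was at 1.14 before and had 8 UMIs in the highest bin.

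**Figure D3:**
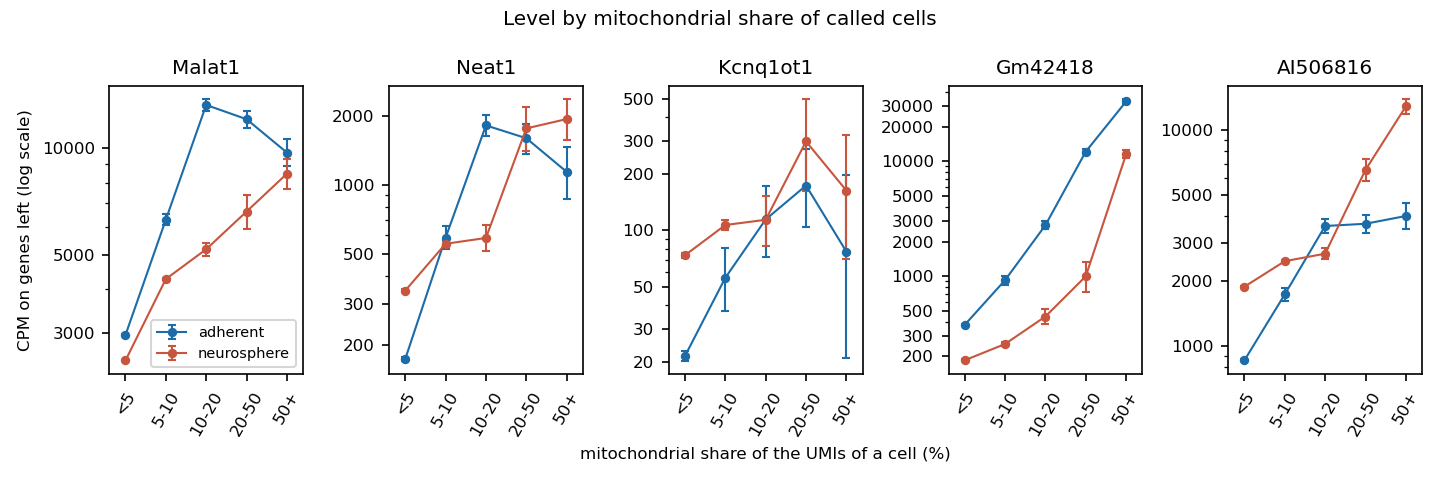
Level of each RNA in CPM on the genes left (log scale) by the mitochondrial share of the called cells, with 95% counting intervals. Gm42418 climbs in every bin, to 33101 CPM (adherent) and 11506 CPM (neurosphere), while Malat1 in adherent cells is highest at 10 to 20% (13262 CPM).

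Cells with a high ribosomal share, the UMIs of Rps and Rpl genes out of those that are not mitochondrial, held less of these RNAs, and most clearly so in neurospheres. The bins had medians from 25.2% to 34.4% in adherent and from 11.4% to 20.9% in neurosphere cells. The level was over 2-fold lower in the top bin for 1 of 5 RNAs in adherent cells (4.87% of genes) and for 3 of 5 in neurosphere cells (7.28% of genes). UMIs of ribosomal genes are not part of the total behind CPM.

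Malat1 in neurosphere cells was at 5970.4, 3206, 2441, 1902 and 1651 CPM from the lowest to the highest ribosomal share, a log2 ratio of -1.85 (-1.88 to -1.83), and 0.716% of genes had a lower one. In adherent cells it was at 4446 in the lowest and 2439 CPM in the highest bin, a log2 ratio of -0.87. Kcnq1ot1 had a log2 ratio of -1.23 in adherent cells, from 34.8 to 14.8 CPM, and of -1.41 in neurosphere cells, from 139.8 to 52.7 CPM. It was thus over 2-fold lower in both cultures.

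Neat1 went from 631 to 313 CPM in neurosphere cells (log2 ratio -1.01). In adherent cells it was lowest in the middle bin, at 154 CPM, with 244 and 190.4 CPM at the ends. Gm42418 and AI506816 had ratios between -0.23 and -0.51, beside medians of -0.29 over all genes. Cells of the lowest ribosomal bin were shallower in neurospheres, with a median of 9076 UMIs against 14016 in the highest. Within bins of depth 3 of the 10 values stayed over 2-fold lower. Within bins of long-gene share, added after the data had been seen, none did, and the adherent ratios of Malat1, Neat1 and Gm42418 turned to 0.017, 0.30 and 0.057. No share of all genes is given for either split, so whether 3 of the 10 is unusual cannot be said.

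Malat1 was lowest at intermediate levels of mitosis genes and not in the cells with the most. The mitosis share is the UMIs of 50 genes used in G2 and mitosis out of those on genes left other than the 5 RNAs. Malat1 was at 4646, 2472, 2238, 2460 and 3559 CPM from the lowest to the highest bin in adherent cells. In neurosphere cells it was at 5716, 3359, 1870 and 2065 CPM and then 2530.5 CPM in the highest bin. The bin with the fewest mitosis UMIs was the highest in both cultures.

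**Figure D4:**
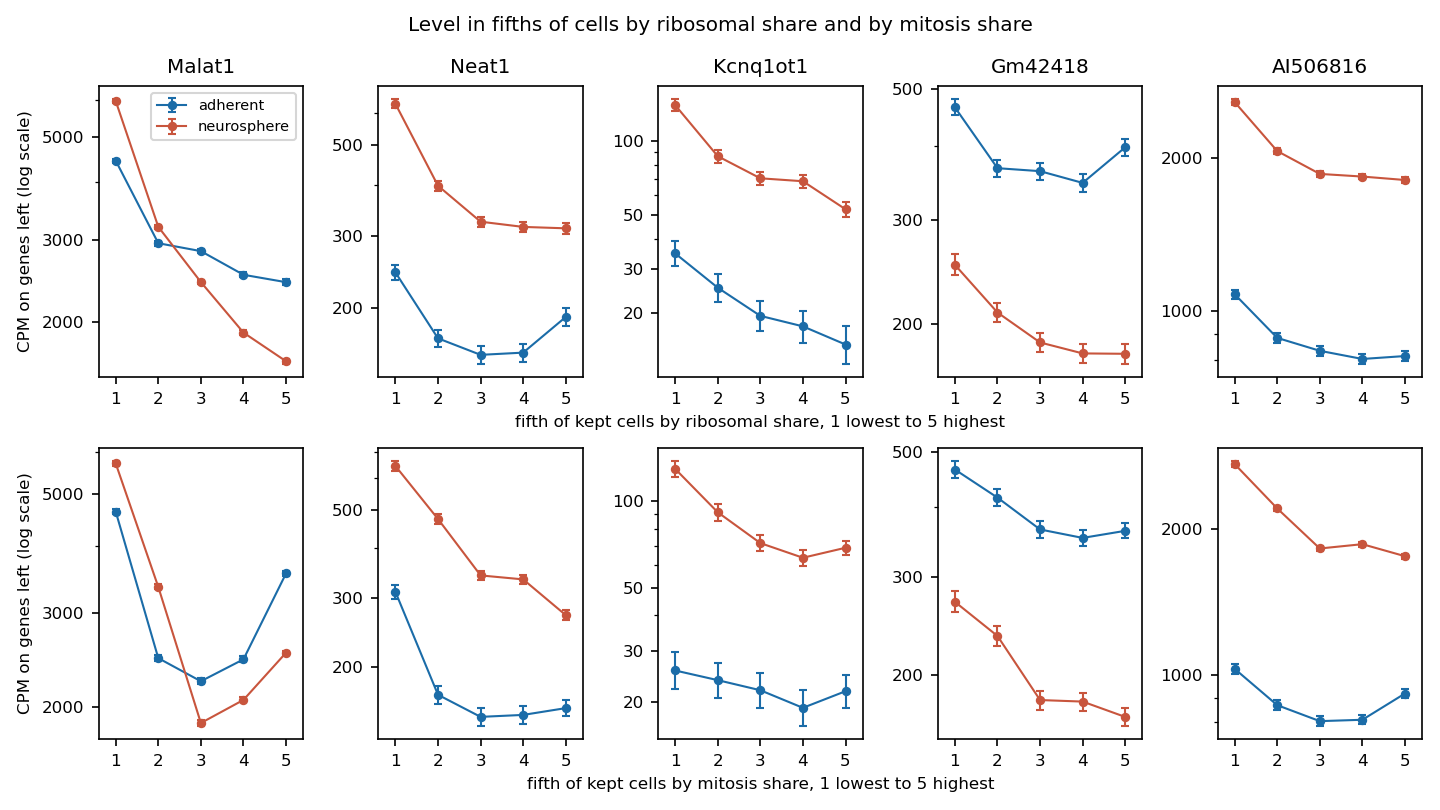
Level of each RNA in CPM (log scale) in 5 bins of kept cells by ribosomal share (upper row) and by mitosis share (lower row), with 95% counting intervals. Malat1 over mitosis share is lowest in the middle bin in both cultures, at 2238 CPM (adherent) and 1870 CPM (neurosphere).

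From the lowest to the highest mitosis bin, none of the 5 RNAs was over 2-fold lower in adherent cells (1.95% of genes) and 2 were in neurosphere cells (11.3% of genes). These were Malat1, with a log2 ratio of -1.18 (-1.19 to -1.16), and Neat1, which went from 644 to 271 CPM, a log2 ratio of -1.25 (-1.31 to -1.19). Neat1 in adherent cells went from 309.9 to 157.9 CPM, a log2 ratio of -0.97. Kcnq1ot1 had an interval that held 0 in adherent cells (-0.53 to 0.046), so a difference was not detectable there at this depth.

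Cells with a high mitosis share were also deeper, with medians of 10490.5 UMIs in the top and 6757 in the bottom adherent bin and of 18257 and 8240 in the neurosphere bins. Within bins of depth the adherent ratios of Malat1, Gm42418 and AI506816 turned to 0.11, 0.045 and 0.049, and those of Malat1 and Neat1 in neurosphere cells were -0.35 and -0.81. Neat1 was thus lower with mitosis genes in both cultures at like depth (-0.56 in adherent cells), and Malat1 in adherent cells was not. By S-phase share, formed likewise from 30 genes, none of the 5 in adherent cells (0.696% of genes) and Malat1 in neurosphere cells (8.43% of genes), from 5049 to 2198 CPM, was over 2-fold lower.

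Across cells, these RNAs went more closely with the share of long genes than with any property named so far, apart from Gm42418 in adherent cells, which was closer to depth (a correlation of -0.24 against 0.18). None of the 5 is among the 1077 long genes. Over 4464 adherent and 4196 neurosphere cells thinned to 5000 UMIs, Malat1 had a Spearman correlation of 0.66 and 0.69 with it, above that of 99.98% and 99.99% of genes. AI506816 had 0.34 and 0.34, Neat1 0.26 and 0.37, Gm42418 0.18 and 0.22, and Kcnq1ot1 0.17 and 0.29, with a median gene at 0.025 and 0.016. Whether reads in introns were counted is not given in the sources used here.

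With depth, the correlation ran from -0.24 to -0.021 in adherent and from -0.29 to -0.15 in neurosphere cells, with Gm42418 lowest among adherent cells and Malat1 lowest among neurosphere cells. With mitochondrial share, the highest were AI506816 in adherent cells (0.20) and Malat1 in neurosphere cells (0.25). With ribosomal share Malat1 was at -0.17 and -0.37, and 0.014% of genes had a lower value than the latter, while Neat1 and Gm42418 were near 0 in adherent cells (0.019 and 0.0029). Cells of 1 library share that library and its free RNA, and Kcnq1ot1 counts were sparse, so these values are given as descriptions.

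**Figure D5:**
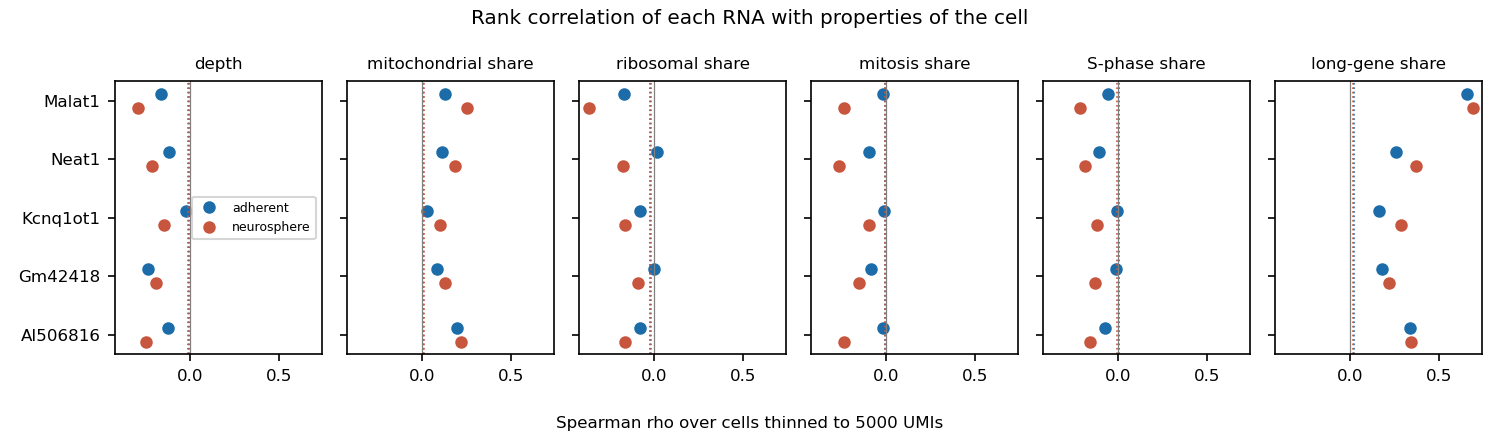
Spearman correlation of each RNA, in cells thinned to 5000 UMIs, with 6 properties of the cell (4464 adherent and 4196 neurosphere cells); dotted lines are the median over all genes. Malat1 with long-gene share lies at 0.66 and 0.69, and the points for depth lie left of 0.

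Among the 5, the highest correlations were between Malat1, Neat1 and AI506816. The Spearman correlation of Malat1 with Neat1 was 0.30 in adherent and 0.42 in neurosphere cells, that of Malat1 with AI506816 was 0.30 and 0.36, and that of Neat1 with AI506816 was 0.27 and 0.35. Each was above at least 99.8% of genes set against the same RNA. Gm42418 with AI506816 had smaller values, 0.095 and 0.13, but these too were above 99.8% and 99.9% of genes. The other pairs with Gm42418 and Kcnq1ot1 ran from 0.032 to 0.14 in adherent and from 0.052 to 0.23 in neurosphere cells, above 86.7% to 98.9% of genes.

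The genes most like each member were taken by Pearson's r of log counts in thinned cells, as the 5 genes with the highest value in the culture where it was smaller, over 5270 genes. For Malat1 these were Nkain2, a partner of the sodium pump (r of 0.43 in adherent and 0.47 in neurosphere cells), Col11a1, a chain of fibrillar collagen (0.35 and 0.51), Neat1, AI506816 and Arhgap6 (0.39 and 0.28). For Neat1 they were Malat1 (0.31 and 0.42), AI506816, Tex14 (0.23 and 0.23), Cdh18, a cadherin (0.24 and 0.20), and Nkain2. For AI506816 they were Neat1 (0.30 and 0.37), Malat1, Cdh18, Nkain2 and Mthfd2l, a folate enzyme (0.18 and 0.18). For Kcnq1ot1 they were Nkain2, Malat1, Arhgap6, Mdga2 and Col11a1, and for Gm42418 they were Malat1, Col11a1, Nkain2, Ogt and AI506816, all at 0.15 or less in adherent cells. Of the 8 genes named here that are not among the 5 RNAs, Nkain2, Arhgap6, Cdh18 and Mdga2 span at least 200000 bases, as did 5.12% of the 5270 genes.

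A few kept cells had no UMI of Malat1, 100 of 5051 adherent and 41 of 4276 neurosphere cells, and they are described here without a test because their Malat1 count chose them. Neat1, Kcnq1ot1 and AI506816 were lower in them than in the other kept cells, and so was Gm42418 in adherent cells. Neat1 was at 52.9 CPM against 183 CPM in the adherent cells with Malat1 and at 96.5 against 379 CPM in neurosphere cells. Kcnq1ot1 was at 7.88 against 22.4 CPM and at 28.2 against 79.3 CPM, on 7 and 14 UMIs. AI506816 was at 572 against 884 CPM and at 1647 against 1984 CPM. Gm42418 was at 307 against 387 CPM and at 163 against 196 CPM, on 273 and 81 UMIs. With so few UMIs its neurosphere value is not read as lower.

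The median depth of these cells was 7534 UMIs against 8281 in adherent cells and 11182 against 13226 in neurosphere cells. The median long-gene share was 1.53% against 2.70% and 2.37% against 4.77%. Mitochondrial share was 1.87% against 2.02% and 3.83% against 3.97%, so it differed little.

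Other long noncoding RNAs, the genes of speckle and paraspeckle proteins and the neighbours of 3 members were taken as lists. Of 22 other nuclear long noncoding RNAs with at least 50 UMIs, 7 were over 2-fold higher and 5 over 2-fold lower in neurosphere cells (21.7% and 11.7% of all genes), with a median log2 ratio of 0.70 against 0.32. The largest were Pantr1 (3.01), Dleu2 (1.84), 1810026B05Rik (1.54), Firre, which shapes chromosome contacts (1.35), and Snhg14 (1.12) on the higher side. Mirg (-3.64), 5430416N02Rik (-2.17), Rmst (-1.98), Mir100hg (-1.09) and AY036118 (-1.05) were the lower ones. Over depth, 7 of 19 in adherent and 6 of 18 in neurosphere cells were over 2-fold lower in the deepest bin (4.07% and 10.4% of all genes), with medians of -0.84 and -0.78 against -0.20 and -0.22 for all genes.

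Long noncoding RNAs known from the cytoplasm, most of them hosts of small nucleolar RNAs, were described for contrast. Of 14, 1 was over 2-fold higher (H19, an imprinted growth regulator, at 19 and 6130 UMIs, log2 ratio 7.85) and 5 over 2-fold lower in neurosphere cells (21.7% and 11.7% of all genes). These 5 were Snhg1 (-1.52), Zfas1 (-1.48), Snhg12 (-1.46), Snhg15 (-1.38) and Gas5 (-1.24), and the list median was -0.77 against 0.32. Over depth their medians were -0.32 in adherent and 0.22 in neurosphere cells, and over mitochondrial share of kept cells they were -0.011 and -0.21, where the other nuclear RNAs had 0.72 and 0.79.

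Of 16 genes that encode proteins of paraspeckles, 6 were over 2-fold higher and 0 lower in UMIs in neurosphere cells (21.7% and 11.7% of all genes, or 16.1% and 14.5% with TMM scaling), with a median log2 ratio of 0.78 against 0.32. The proteins themselves were not measured. The largest were Sfpq (1.52), which encodes a core protein that binds Neat1, Hnrnpk (1.33), Ewsr1 (1.31) and Pspc1 (1.24). Nono, the other core partner, had 277 CPM when adherent and 433 CPM in neurospheres. Of 28 genes of speckles and splicing, 4 were over 2-fold higher and 0 lower, with a median of 0.52. The share of higher genes on this list was below that of all genes. The 4 were Ddx5 (1.89), Srsf6 (1.66), Srsf2 (1.10) and Ddx39b (1.02).

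Neighbours were taken for Malat1, Neat1 and Kcnq1ot1. Of 9 neighbours of Malat1 and Neat1 on chromosome 19, 1 was over 2-fold higher (Slc25a45, 1.08) and 0 lower, with a median of 0.17. Of 11 genes of the imprinted Kcnq1 region, 5 were over 2-fold higher and 4 lower in neurosphere cells (21.7% and 11.7% of all genes). Cd81 (5.60), Tssc4 (5.53), Tspan32 (2.95), Trpm5 (2.42) and Cdkn1c, a brake on the cell cycle that Kcnq1ot1 is known to silence (1.50, on 29 and 115 UMIs), were the higher ones.

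Phlda2, also known as silenced by Kcnq1ot1, was lower in neurospheres, with 366 CPM in the adherent library and 21.6 CPM there (log2 ratio -4.08). Slc22a18 had 64 UMIs in adherent and 0 in neurosphere cells, a log2 ratio of -4.90 with 3 UMIs set for the library at 0 and a 95% upper limit of -4.56 from the counts themselves. Osbpl5 (-2.17) had 45 and 14 UMIs, and Tnfrsf23 (-1.70) had 88 and 38. Kcnq1, on the strand across from Kcnq1ot1, had 4 and 28 UMIs, too few for a ratio to be read.

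The genes behind the mitosis and S-phase shares were compared in the same way. Of 50 mitosis genes 0 were over 2-fold higher and 1 lower in neurosphere cells (Anln, an actin binding protein of cell division, -1.44), with a median of -0.017. Of 30 S-phase genes 8 were over 2-fold higher and 0 lower (21.7% and 11.7% of all genes), with a median of 0.62 against 0.32. The largest were E2f8 (2.05), Mcm2 (1.93), Fen1 (1.78), Slbp (1.59) and Exo1 (1.35), which serve the copying of DNA and its control.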

How the data were processed

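The deposited files hold raw UMI counts per gene and cell for the cells that the authors' run of Cell Ranger called, and the submitters' processing notes name Cell Ranger 7.0.1 and mm10. The annotation, the strand setting and whether intron reads were counted are not given in the sources used here. The 13 mt- genes and 101 Rps and Rpl genes were set aside, which left 32171 genes, and cells with at least 1000 UMIs and 1250 (adherent) or 2250 (neurosphere) genes were kept, after the study's methods, although the study's own numbers of kept cells were slightly higher. Doublets were not removed. CPM were formed from counts summed over cells, with exact Poisson intervals, exact conditional intervals for ratios and Clopper-Pearson intervals for shares, all at 95%. A count of 0 was set to a floor of 3 counts in ratios. Cells were thinned at random to 5000 or 2000 UMIs for shares, Fano factors and correlations. Genes with at least 50 UMIs entered the comparison of cultures, and those with at least 200 UMIs in a library the trends over cells. TMM factors came from edgeR 4.0.16 in R 4.3.3 and the rest from Python 3.11.15 with numpy 2.4.6, scipy 1.17.1 and pandas 2.3.3, and figures from matplotlib 3.10.9. Ratios of summed counts with their intervals, and the depth trend of a gene at a constant level, were tried on simulated counts. The other computations were not.

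The 5 RNAs and the gene lists were chosen with earlier results of these data known. Genes named beside the 5 RNAs were the 5 most correlated with each, among genes with a UMI in at least 10% of thinned cells in both libraries, and up to 5 of a list in each direction past 2-fold, the largest first; Nono, Kcnq1 and the markers were added after their values were seen. Positions and transcripts came from the GENCODE M21 annotation of GRCm38, which held 32235 of the 32285 gene identifiers, and A runs were searched in transcripts because no genome sequence was used here. Alternatives changed the total, the scaling, the cells kept, the number of bins and the split within depth, mitochondrial share or long-gene share. A gene that the naming rule would have added is not reported here.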

Additional observations from a re-analysis of the deposited data

How the results depend on the processing

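No paired analysis was possible because each culture had 1 library. Of the comparison of cultures, all called cells gave 1 RNA over 2-fold lower and TMM scaling gave 1 higher and 1 lower, in place of 3 and 0, and Malat1 reversed to 0.11 with all UMIs in the total and to 0.13 in thinned cells. Sorting cells into 3 bins in place of 5 gave 2 of 10 values past 2-fold for depth, by construction a smaller contrast, in place of 6, while all called cells gave 9, for which no share of all genes was computed, with Gm42418 at -3.19 and Neat1 at -2.55 in adherent cells in place of -1.24 and -1.56. The 3 bins gave 2 for ribosomal share in place of 4. Ribosomal share within bins of long-gene share gave 0, and there Malat1, Neat1 and Gm42418 in adherent cells reversed to 0.017, 0.30 and 0.057. Mitosis share gave 0 in place of 2 within bins of depth and 0 within bins of mitochondrial share, and within depth Malat1, Gm42418 and AI506816 in adherent cells reversed to 0.11, 0.045 and 0.049. The split by mitochondrial share of kept cells gave 0 in place of 3 with 3 bins, within depth and within long-gene share. These causes were not tested, and no interval or share of all genes is given for these splits. With mitochondrial UMIs in the total, the bins of called cells gave 2 in place of 10, since the total grows with the share itself. Malat1 in adherent cells fell to -0.037, close to no difference, on 504 UMIs in the highest bin. In neurosphere cells Malat1 reversed to -1.31, Neat1 to -0.58 and AI506816 to -0.30. Kcnq1ot1 there went from 1.14, with an interval that held 0, to -1.92. Called cells with at least 1000 UMIs gave no value for these bins, as 0 of them had 50% or more. The mitochondrial split of kept cells and the splits within mitochondrial and long-gene share were chosen after seeing the data.

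Depth limits the share of cells with a UMI. In cells thinned to 5000 and to 2000 UMIs the shares in adherent cells were 95.5% and 88.8% for Malat1, 42.6% and 25.5% for Neat1, 9.95% and 4.25% for Kcnq1ot1, 82.7% and 54.5% for Gm42418, and 95.1% and 76.8% for AI506816. In neurosphere cells they were 96.0% and 87.0%, 67.9% and 43.1%, 30.5% and 15.3%, 62.0% and 34.8%, and 99.7% and 95.6% in the same order.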
